A study of Mus musculus with 20 samples.

Results

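Mice injected with immune complexes that received sparsentan at either of 2 doses were compared, as a single group, with injected mice that received vehicle. The comparison holds 15 of the 20 kidney libraries of the series. All 5 EIC + S60 and all 5 EIC + S120 libraries formed the sparsentan group of 10, the 5 EIC libraries were the reference, and the 5 Control libraries took no part in the test. Female NCr nude sp/sp mice, which lack a thymus and most T cells, were 7 weeks old. EIC stands for engineered immune complexes. These were made of a human myeloma IgA1 with some O-linked glycans that lack galactose (0.2 mg) and a recombinant human IgG autoantibody against it (0.1 mg). They were injected intravenously every other day, 6 times in all, into EIC, EIC + S60 and EIC + S120 mice alike. EIC mice were gavaged with vehicle, EIC + S60 mice with sparsentan at 60 mg per kg a day and EIC + S120 mice at 120 mg per kg a day, for 11 days. Gavage began on the day of the first injection, so the drug was given along with the complexes and not after them. Control mice received buffer in place of complexes, and vehicle. Each library is poly(A) RNA from the kidney of 1 mouse, taken on day 12. The complexes are human proteins given passively, so the model holds no IgA response of the mouse itself.

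Sparsentan blocks the endothelin type A receptor and the angiotensin II type 1 receptor. Renin, released by juxtaglomerular cells of the afferent arteriole, cleaves angiotensinogen, and angiotensin-converting enzyme then makes angiotensin II. Angiotensin II acting on its type 1 receptor restrains renin release and renin gene expression, so blockade of this receptor is known to raise renin in the kidney. Endothelin-1 constricts vessels and stimulates mesangial cells through its type A receptor, which lies mainly on smooth muscle, whereas the type B receptor lies mainly on endothelium and collecting duct. Immune complexes lodged in the mesangium are known to recruit and activate macrophages, and interferon-gamma is a main inducer of the guanylate-binding proteins and immunity-related GTPases in many tissues.

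The total counts per library ranged from 17403376 to 19635495 in EIC and from 15220943 to 27948916 in the sparsentan group (exact permutation test, two-sided, p = 0.712). The share of counts taken by the 10 highest genes was 16.4% ± 1.93 (SD, n = 5) in EIC and 15.9% ± 1.14 (SD, n = 10) with sparsentan (exact permutation test, two-sided, p = 0.51). The 13 mitochondrial protein genes took 11.6% ± 1.73 of counts in EIC (SD, n = 5) and 10.8% ± 0.848 with sparsentan (SD, n = 10, exact permutation test, two-sided, p = 0.268). With the scaling factors these made 4 comparisons, and each adjusted p was 0.712. EIC mouse 67 stood apart in leukocyte and interferon genes. It had the highest level of the 15 libraries for 18 of 21 interferon-gamma-inducible genes and 19 of 23 macrophage and monocyte genes, against 8.02% of all genes tested. The gene groups in which this mouse was often the highest are given with and without it. EIC + S60 mouse 75, the library with the most counts, stood apart in another way. On the log2(CPM + 1) scale it lay over 4-fold below all other 14 libraries for 15 genes, among them 6 mitochondrial genes (ATP6, ATP8, COX2, COX3, ND3 and ND4L, with ATP6 at 6.05 CPM against at least 767 CPM elsewhere), and no other library lay so far below the rest for any gene. Control mouse 651 was about as low for these 6. None of the 15 genes is in a list used here, and without mouse 75 Ren1 had a log2 fold change of 1.82 (adjusted p = 0.00276). What set mouse 75 apart was not tested. Defining genes of podocytes, endothelium, proximal tubule and collecting duct were present in every group, whereas only 3 of 13 T and natural killer cell markers and 4 of 10 B and plasma cell markers had enough counts to be tested.

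One gene passed the test. With edgeR's quasi-likelihood test and Benjamini-Hochberg adjustment over the 13743 genes that reached 10 counts in 5 or more of the 15 libraries, only Ren1 had an adjusted p under 0.05, which is 0.00728% of the genes tested. At an unadjusted p under 0.05, 499 genes (3.63%) were higher and 511 genes (3.72%) were lower with sparsentan. The median log2 fold change over all genes was -0.003. Without EIC mouse 67, 2.31% of genes were higher and 2.7% were lower at an unadjusted p under 0.05. The shares with and without this mouse are the background for the counts of list members below. limma-voom also called 1 gene, Ren1. DESeq2 called 36 genes (0.262% of those tested), 16 higher and 20 lower, so the number of genes past the threshold depends on the tool, and a gene called by DESeq2 alone is named as such.

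Ren1 encodes renin, the enzyme that starts the angiotensin cascade. The Ren1 level, in counts per 1000000 counts of the library (CPM), was 136, 165, 200, 228 and 213 in the 5 EIC mice. It was 794, 511, 818, 434 and 748 CPM in the 5 EIC + S60 mice and 588, 852, 744, 457 and 807 CPM in the 5 EIC + S120 mice. Every sparsentan mouse was above every EIC mouse, and the lowest sparsentan value, 434 CPM, lay well above the highest EIC value, 228 CPM. The mean was 189 ± 37.3 CPM in EIC (SD, n = 5) and 675 ± 161 CPM with sparsentan (SD, n = 10), a log2 fold change of 1.84 with an SE of 0.18, or 3.58-fold (adjusted p = 0.000718). The 5 Control mice, at 228, 138, 54.6, 160 and 96.1 CPM, overlapped with EIC and lay below every sparsentan mouse.

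Both doses gave a Ren1 level of about the same height. Against EIC, the log2 fold change was 1.81 (SE 0.22, adjusted p = 0.00804) at 60 mg per kg and 1.87 (SE 0.22, adjusted p = 0.0042) at 120 mg per kg. These comparisons share their EIC mice. At 60 mg per kg the adjusted p rose to 0.0748 without EIC mouse 66, to 0.0532 without EIC mouse 67 and to 0.186 with the Control libraries in the fit, whereas at 120 mg per kg it stayed between 0.00117 and 0.0267 with any library left out. The direct difference between doses was 0.06 on the log2 scale, with a 95% interval from -0.39 to 0.53 (adjusted p = 0.97). Differences within that interval are not excluded. Within each dose the mice spread widely, with 2 of 5 mice at 60 mg per kg and 1 of 5 at 120 mg per kg at or under 511 CPM.

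Leaving out any 1 of the 15 libraries left the log2 fold change of Ren1 between 1.74 and 1.92 and its adjusted p between 0.000142 and 0.00924. The adjusted p was 0.054 when the Control libraries, whose Ren1 varied most among themselves in relative terms, entered the fit and added to the estimate of the spread. Some mouse strains carry Ren2, a near-identical neighbour of Ren1 that is no part of the reference chromosome 1, and reads from such a copy would be counted as Ren1. Whether these mice carry it is not known from the labels or the methods.

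The 100 bases before the Ren1 start site are shown because Ren1 was the only gene called. They lie at chr1:133350574-133350673 on the plus strand (GRCm38.p6, RefSeq), upstream of the first exon, and run 5′ to 3′ up to the base before the start.

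Ren1: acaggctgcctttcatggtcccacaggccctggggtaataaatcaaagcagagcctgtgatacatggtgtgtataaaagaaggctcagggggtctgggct

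The cyclic AMP response element TGACGTCA was not found in the 300 bases from 250 before to 50 after this start, searched on both strands. It was found in the same window of 2.03% of the 27025 genes with such a sequence.

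**Figure D1:**
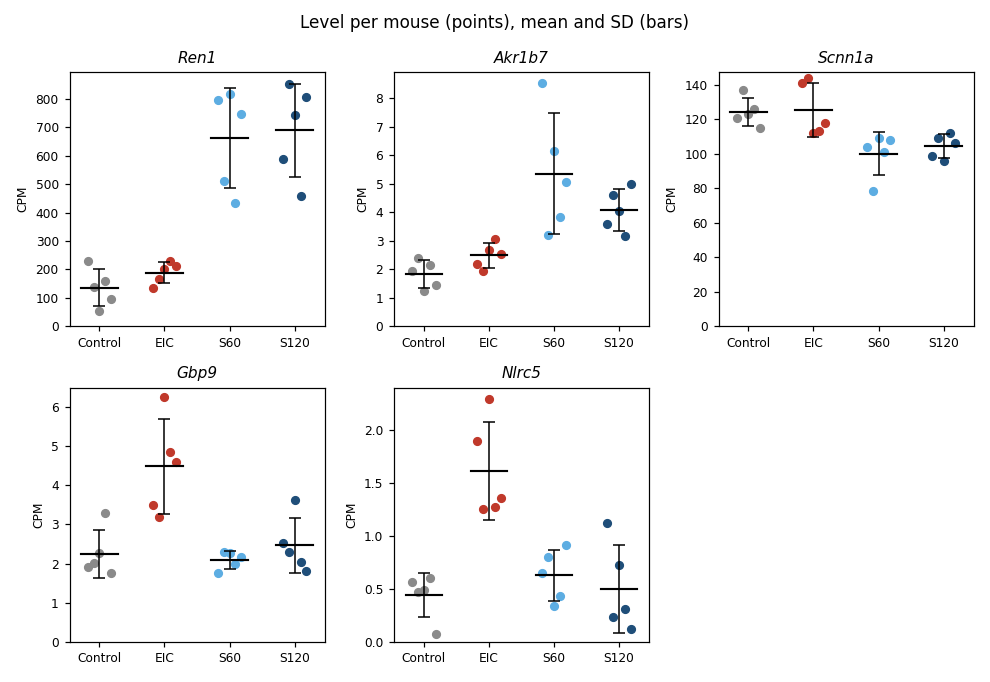
Levels in CPM (vertical axes, linear from 0) of 5 genes in each mouse of the Control, EIC, EIC + S60 and EIC + S120 groups (points), with the group mean and SD (bars, n = 5). All 10 sparsentan mice lie above all 5 EIC mice for Ren1 and Akr1b7 and below them for Scnn1a and Nlrc5, and 9 of 10 lie below every EIC mouse for Gbp9.

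Of the 15 genes listed for the renin-angiotensin system, 12 were tested, 1 was listed with too few counts, and 2 were not analysed here. Ren1 was the member called, 4 members in all were higher and 1 was lower at an unadjusted p under 0.05, and the median log2 fold change of the 12 was 0.10 (0.07 without EIC mouse 67, with 4 higher and none lower). Of all genes, 3.63% were higher and 3.72% were lower with that mouse, and 2.31% and 2.7% without it. Agt, which encodes angiotensinogen, the substrate of renin, had a log2 fold change of -0.05 (SE 0.23, adjusted p = 0.978), at a mean of 2.12 CPM over the 15 libraries. Ace, the converting enzyme, had a log2 fold change of 0.04 (SE 0.19, adjusted p = 0.976), with EIC values of 355, 165, 253, 163 and 371 CPM that enclosed all 10 sparsentan values.

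The receptor that sparsentan blocks on the angiotensin side, Agtr1a, had levels of 43.7, 42.5, 40.6, 38.3 and 44.6 CPM in EIC and of 41.9, 47.7 and 57 CPM (lowest, median and highest) with sparsentan. The groups overlapped, with 7 of the 10 sparsentan mice above every EIC mouse. Its log2 fold change was 0.18 (SE 0.07, adjusted p = 0.612), made up of 0.26 at 60 mg per kg and 0.10 at 120 mg per kg. Lnpep, an aminopeptidase that binds angiotensin IV, had a log2 fold change of 0.38 (SE 0.14, adjusted p = 0.612), and Prep, a prolyl endopeptidase that cleaves angiotensin peptides, one of -0.13 (SE 0.06, adjusted p = 0.657). The peptidases Enpep, Anpep and Mme and the accessory proteins Agtrap and Atp6ap2 had log2 fold changes between 0.01 and 0.13, with adjusted p-values from 0.771 to 0.982. A change as large as that of Ren1 was seen in no other member of the system.

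Of the 7 endothelin genes listed, 6 were tested and none was called. One member, Ednra, was higher at an unadjusted p under 0.05 (none without EIC mouse 67), against 3.63% of all genes, and the median log2 fold change of the 6 was 0.03. Ednra, the type A receptor that sparsentan blocks, had levels of 3.84, 1.99, 3.46, 5.04 and 5.26 CPM in EIC. With sparsentan it was 4.02, 5.49 and 6.98 CPM (lowest, median and highest). The groups overlapped, and 6 of 10 sparsentan mice were above every EIC mouse. Its log2 fold change was 0.46 (SE 0.19, adjusted p = 0.651), with 0.37 at 60 mg per kg and 0.54 at 120 mg per kg. Ednrb, the type B receptor, had a log2 fold change of -0.14 (SE 0.13, adjusted p = 0.878). The ligand Edn1 stood at 1.26, 1.14, 2.12, 2.03 and 1.56 CPM in EIC and had a log2 fold change of 0.15 (SE 0.23, adjusted p = 0.928), and the ligand Edn3 one of -0.16 (SE 0.18, adjusted p = 0.891). The converting enzymes Ece1 and Ece2 had log2 fold changes of 0.09 (SE 0.06, adjusted p = 0.793) and -0.04 (SE 0.09, adjusted p = 0.951).

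**Figure D2:**
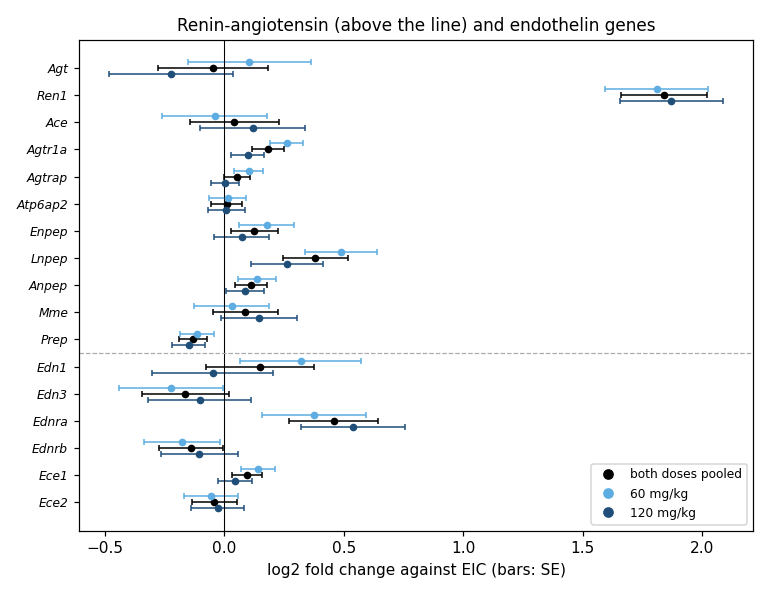
Log2 fold change against EIC (horizontal axis, with the SE as bars) of 11 renin-angiotensin genes, above the dashed line, and the 6 tested endothelin genes, for both doses pooled, 60 mg per kg and 120 mg per kg. Ren1 stands near 1.84 at either dose, and the pooled values of the other 16 genes lie between -0.16 and 0.46.

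Renin cells and the smooth muscle and mesangial cells they are related to were described with 20 marker genes, all tested. Ren1 was the 1 gene called among them. Akr1b7, an aldose reductase-like enzyme that marks renin cells in the mouse kidney, was the other member whose groups did not overlap. It was 2.19, 1.93, 2.68, 3.07 and 2.55 CPM in EIC. At 60 mg per kg it was 8.54, 3.21, 6.13, 3.83 and 5.04 CPM and at 120 mg per kg 3.59, 4.59, 4.03, 3.17 and 4.99 CPM. Each sparsentan mouse exceeded the highest EIC mouse, although the gap was narrow, 3.07 against 3.17 CPM. Its log2 fold change was 0.92 (SE 0.20, 1.89-fold), with an adjusted p of 0.337 by edgeR and 0.0225 by DESeq2.

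The remaining 18 markers of this group had no such separation. The connexin Gja5 had a log2 fold change of 0.33 (SE 0.15, adjusted p = 0.665) and the connexin Gja4 one of -0.42 (SE 0.20, adjusted p = 0.667). The smooth muscle genes Acta2 and Myh11 had values of 0.14 (SE 0.18, adjusted p = 0.913) and 0.07 (SE 0.20, adjusted p = 0.963). The median log2 fold change of the 20 markers was 0.16. At an unadjusted p under 0.05, 5 of the 20 were higher and 1 was lower, against 3.63% and 3.72% of all genes. In a whole-kidney library, more cells of a type and more RNA per cell cannot be told apart.

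Genes of sodium reabsorption are regulated by aldosterone, whose release angiotensin II stimulates. Of 17 such genes tested, none was called, and 3 were lower and none was higher at an unadjusted p under 0.05, against 3.72% and 3.63% of all genes. The median log2 fold change of the 17 was -0.09 (-0.14 without EIC mouse 67), and 14 had a negative one. Scnn1a, the alpha subunit of the epithelial sodium channel, was 141, 144, 112, 113 and 118 CPM in EIC. It was 104, 78.4, 109, 101 and 108 CPM at 60 mg per kg and 98.5, 109, 95.7, 112 and 106 CPM at 120 mg per kg. All sparsentan mice were below all EIC mice, by a margin of less than 1 CPM between the nearest of them. The log2 fold change was -0.30 (SE 0.08, adjusted p = 0.373 by edgeR and 0.122 by DESeq2). The beta and gamma subunits, Scnn1b and Scnn1g, had log2 fold changes of -0.12 (SE 0.12, adjusted p = 0.877) and -0.13 (SE 0.13, adjusted p = 0.88).

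Slc12a3, the thiazide-sensitive sodium chloride cotransporter of the distal convoluted tubule, had a log2 fold change of -0.53 (SE 0.21, adjusted p = 0.642), and Stk39, a kinase that activates it, one of -0.24 (SE 0.10, adjusted p = 0.655). Calb1 and Trpm6, further genes of the distal convoluted tubule, had log2 fold changes of -0.65 (SE 0.25, adjusted p = 0.612) and -0.71 (SE 0.21, adjusted p = 0.501). Of 12 genes of the thick ascending limb and distal tubule, 11 had a negative log2 fold change and 4 were lower at an unadjusted p under 0.05, with a median of -0.22. Of 15 proximal tubule genes, 11 had a positive log2 fold change and 4 were higher at an unadjusted p under 0.05, among them the endocytic receptors Cubn, at 0.36 (SE 0.10, adjusted p = 0.488), and Lrp2, at 0.35 (SE 0.12, adjusted p = 0.56). Without EIC mouse 67, 7 of the 12 genes of the thick ascending limb and distal tubule were lower, with all 12 negative and a median of -0.27, and 2 of the 15 proximal tubule genes were higher. Of all genes, 2.7% were lower and 2.31% were higher without that mouse, and 3.72% and 3.63% with it. None of these genes passed the adjusted threshold by edgeR or DESeq2.

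Groups that did not overlap were rare. In 9 genes (0.0655% of those tested) all 10 sparsentan mice were above all 5 EIC mice, and in 8 genes (0.0582%) all were below. The 9 higher genes were Ren1, Mtor, Mgam, Abca8b, Akr1b7, 6030458C11Rik, Naa16, Clip1 and Myo6. The 8 lower genes were Tmco4, Cdk14, Nlrc5, Fgd2, Slc25a35, Scnn1a, Tpst2 and Bcl2l12. These names were taken after their values had been seen. In most of them the shift was small, and apart from Ren1 only Nlrc5 was shifted by more than 1 on the log2 scale.

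Among the 10 genes with the smallest p, Ren1 was called by edgeR and all 10 were called by DESeq2. Mtor, the kinase of the growth-regulating mTOR complexes, was 118, 114, 108, 101 and 120 CPM in EIC and 124, 139 and 154 CPM (lowest, median and highest) with sparsentan. Its log2 fold change was 0.31 (SE 0.06, adjusted p = 0.219), with 0.28 at 60 mg per kg and 0.33 at 120 mg per kg. Mgam, a brush border glucosidase, had a log2 fold change of 0.34 (SE 0.07, adjusted p = 0.224), and its lowest sparsentan value, 119 CPM, was above its highest EIC value, 116 CPM. Abca8a, an ABC transporter, had a log2 fold change of 1.19 (SE 0.24, adjusted p = 0.289). Its EIC values of 5.4, 4.15, 7.43, 11.9 and 6.15 CPM overlapped with the 60 mg per kg values, whereas all 5 mice at 120 mg per kg lay between 17.8 and 19.2 CPM.

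Genes lower with sparsentan among these 10 were Tmco4 (log2 fold change -0.28, SE 0.05, adjusted p = 0.219), Lrtm2 (-0.70, SE 0.14, adjusted p = 0.224), the homeobox gene Hoxd8 (-0.30, SE 0.06, adjusted p = 0.26), the B cell adaptor Blnk (-0.50, SE 0.11, adjusted p = 0.289) and the interferon-gamma-inducible gene Gbp9. Tmco4 was tightly grouped, at 25.1, 26.3, 25.4, 23.8 and 25.4 CPM in EIC and 19.6, 20.2 and 23.1 CPM (lowest, median and highest) with sparsentan. In each of the genes named here after Ren1 the interval of the difference between doses covered 0, except for Blnk, where it ran from -0.49 to -0.01 (adjusted p = 0.576).

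Apart from the 3 groups of genes that the study chose, interferon-gamma-inducible genes had the lowest median of the gene lists. Many of them, such as Gbp9, Nlrc5, Tgtp1, Tgtp2 and Iigp1, are also genes that the study chose on these mice. Of 26 members, 21 were tested, 20 had a negative log2 fold change and 19 were lower at an unadjusted p under 0.05, against 3.72% of all genes. The median log2 fold change was -0.96, with -0.878 at 60 mg per kg and -0.997 at 120 mg per kg. None of the 21 was called by edgeR (smallest adjusted p = 0.177) and 9 were called by DESeq2, against 0.262% of all genes. Without EIC mouse 67, 11 of the 21 were lower at an unadjusted p under 0.05, against 2.7% of all genes, 20 had a negative log2 fold change and the median was -0.58. The list had been seen to differ in earlier results from these libraries, so its count is no independent evidence of a direction.

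Gbp9, a guanylate-binding protein, was 3.5, 3.18, 6.26, 4.86 and 4.59 CPM in EIC. With sparsentan it was 1.75, 2.29, 2.27, 2 and 2.17 CPM at 60 mg per kg and 2.53, 2.3, 3.61, 2.05 and 1.82 CPM at 120 mg per kg. Mouse 79, at 3.61 CPM, was the 1 sparsentan mouse inside the EIC range. The log2 fold change was -0.97 (SE 0.17, adjusted p = 0.177 by edgeR and 0.00122 by DESeq2). It was called by edgeR without EIC mouse 66 and without mouse 79, where its smallest adjusted p over the mice left out was 0.0194, and the log2 fold change was -0.83 without mouse 67 (adjusted p = 0.5).

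Nlrc5, which activates transcription of the class I MHC genes, was 1.9, 1.25, 2.29, 1.27 and 1.36 CPM in EIC and 0.117, 0.539 and 1.12 CPM (lowest, median and highest) with sparsentan, and its groups did not overlap. The log2 fold change was -1.49 (SE 0.35, adjusted p = 0.322 by edgeR and 0.0225 by DESeq2). Its counts were low, at a mean of 0.913 CPM over the 15 libraries. The immunity-related GTPases Tgtp2, Tgtp1, Iigp1 and Igtp had log2 fold changes of -1.49 (SE 0.32), -1.37 (SE 0.34), -1.43 (SE 0.34) and -1.09 (SE 0.26), with adjusted p-values from 0.331 to 0.368 by edgeR, and each was called by DESeq2. Tgtp1 and Tgtp2 are near-identical neighbours, so their counts are uncertain where reads could be split between them. Gbp4, at -1.05 (SE 0.27, adjusted p = 0.337), and Irgm2, at -0.87 (SE 0.23, adjusted p = 0.373), were also called by DESeq2. Without mouse 67 the values were -1.08 for Tgtp2, -0.82 for Tgtp1, -0.92 for Iigp1, -0.83 for Gbp4 and -0.57 for Irgm2. Gbp3 and the chemokine Cxcl10 had values near 0, at -0.04 (SE 0.24, adjusted p = 0.985) and 0.10 (SE 0.23, adjusted p = 0.952).

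The start regions of these genes were searched for TTCNNNGAA, the form of the gamma-activated sequence, and GAAANNGAA, the core of elements that interferon regulatory factors bind, on both strands from 250 bases before to 50 after the start. Sequences were at hand for 12 of the 21 genes. TTCNNNGAA was in 7 of the 12 (58.3%) and in 9.55% of all 27025 genes, and GAAANNGAA was in 10 of the 12 (83.3%) and in 9.76% of all genes. In 4 genes, all on chromosome 11, both motifs stood in the same order with their first bases 11 apart, an arrangement noticed in the sequences themselves and held by 9 of the 27025 genes. These 4 are shown because they carry both motifs in the same layout and were each called by DESeq2. Igtp and Irgm2, and likewise Tgtp1 and Tgtp2, are related genes whose start regions share most bases, so they are not independent cases. Capitals mark first TTCNNNGAA and then GAAANNGAA, each sequence ends upstream of the start site, and all are from GRCm38.p6 (RefSeq), written 5′ to 3′ on the strand of the gene.
Igtp, chr11:58199491-58199545, plus strand: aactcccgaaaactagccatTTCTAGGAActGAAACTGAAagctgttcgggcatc
Irgm2, chr11:58214882-58214936, plus strand: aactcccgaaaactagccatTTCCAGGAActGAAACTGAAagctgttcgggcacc
Tgtp1, chr11:48992300-48992354, minus strand: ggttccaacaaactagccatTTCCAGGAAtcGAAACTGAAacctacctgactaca
Tgtp2, chr11:49064259-49064313, minus strand: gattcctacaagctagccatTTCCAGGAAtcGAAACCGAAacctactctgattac
A motif match is a description of the letters, and binding was not measured.

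Type I interferon-stimulated genes form a separate list. Of 35 tested, 33 had a negative log2 fold change and 8 were lower at an unadjusted p under 0.05, against 3.72% of all genes. None was called by edgeR or DESeq2, and the median was -0.39. Ifi35 had a log2 fold change of -0.68 (SE 0.18, adjusted p = 0.358) and Irf9, an interferon regulatory factor, one of -0.40 (SE 0.13, adjusted p = 0.533). Without mouse 67, 3 of the 35 were lower at an unadjusted p under 0.05, against 2.7% of all genes, and the median was -0.22. In antigen presentation, Psmb9, an immunoproteasome subunit, had a log2 fold change of -1.03 (SE 0.27, adjusted p = 0.412), and the peptide transporter Tap1 one of -0.78 (SE 0.25, adjusted p = 0.551). Without mouse 67 these 2 values were -0.62 and -0.43. The medians were -0.20 over 18 MHC class I presentation genes and -0.41 over 9 class II genes, and no member was called by either tool. Mouse 67 had the highest level for 15 of the 18 and 8 of the 9, and without it the medians were -0.06 and -0.19, the latter over 8 genes.

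**Figure D3:**
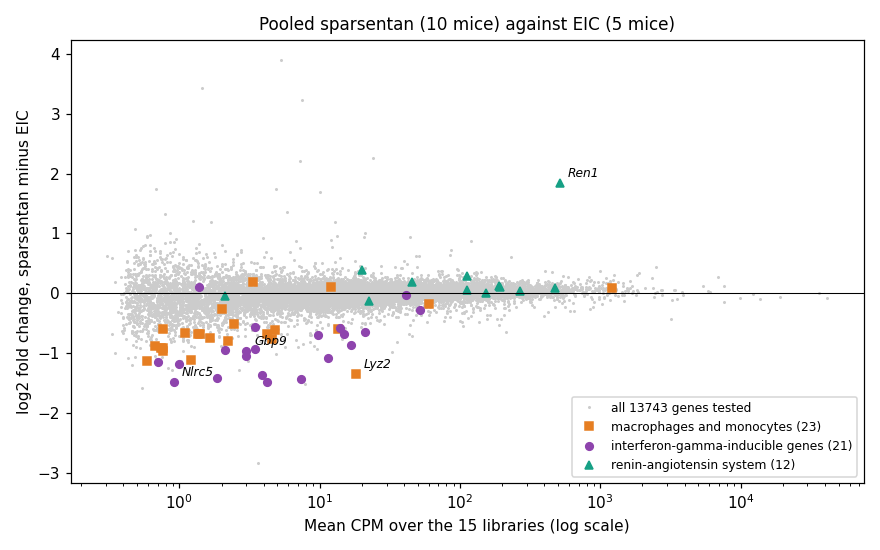
Log2 fold change of pooled sparsentan against EIC (vertical axis) by mean level over the 15 libraries (horizontal axis, CPM on a log scale) for the 13743 genes tested (gray), with 21 interferon-gamma-inducible genes, 23 macrophage and monocyte genes and 12 renin-angiotensin genes marked. Ren1 stands apart at 1.84, whereas 20 of the 21 interferon-gamma-inducible and 20 of the 23 macrophage genes lie below 0.

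No macrophage or monocyte gene passed the test. Of 23 tested, 20 had a negative log2 fold change and 14 were lower at an unadjusted p under 0.05, against 3.72% of all genes. The median was -0.68, and none was called by edgeR (smallest adjusted p = 0.488) or DESeq2. Without mouse 67, 2 of the 23 were lower at an unadjusted p under 0.05, against 2.7% of all genes, and the median was -0.34. Lyz2, lysozyme 2, was 12.2, 15.4, 68.6, 22.3 and 34.2 CPM in EIC and 6.77, 11.7 and 23.2 CPM (lowest, median and highest) with sparsentan. The value of mouse 67 was the highest by a wide margin, and the groups overlapped. Its log2 fold change was -1.35 (SE 0.36, adjusted p = 0.488). The phagocyte marker Cd68 had a log2 fold change of -0.79 (SE 0.24, adjusted p = 0.551), and Adgre1, which encodes F4/80, one of -0.61 (SE 0.29, adjusted p = 0.679). Without mouse 67 the values were -0.81 for Lyz2, -0.38 for Cd68 and -0.27 for Adgre1. The summed level of the 26 genes of the list ranged from 1200 to 1560 CPM in EIC (median 1330). With sparsentan it ranged from 1100 to 1460 CPM (median 1440), and in Control from 899 to 1220 CPM (median 1160). Lyz2, at 68.6 CPM or less, and Cd68 and Adgre1, at lower levels, made up little of this sum. The sum thus follows other, more abundant members and does not stand for the list as a whole. In this list, 3 genes, Cd163, Ms4a7 and Siglec1, had too few counts to test. Many of its members, such as Lyz2 and Adgre1, are also genes that the study chose on these mice, so its counts are no independent evidence. The part of macrophage RNA in the interferon gene values was not tested.

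The 3 subunits of complement C1q, which macrophages make, were lower at an unadjusted p under 0.05. C1qb was 8.12, 10.6, 23.6, 11.7 and 15.9 CPM in EIC and 4.9, 7.65 and 9.29 CPM (lowest, median and highest) with sparsentan. Of the sparsentan mice 6 of 10 were below every EIC mouse. The log2 fold changes were -0.93 for C1qb (SE 0.21, adjusted p = 0.331 by edgeR and 0.0142 by DESeq2), -0.84 for C1qc (SE 0.24, adjusted p = 0.488) and -0.76 for C1qa (SE 0.22, adjusted p = 0.492), and without mouse 67 they were -0.66, -0.495 and -0.48. Over all 20 complement genes tested, the median was 0.02, and Cfb, complement factor B, had a log2 fold change of 0.15 (SE 0.07, adjusted p = 0.657). Of 15 genes of Fc receptors and the signaling chains they use, all 15 had a negative log2 fold change, 5 were lower at an unadjusted p under 0.05 and the median was -0.43. Without mouse 67, which had the highest level for 9 of the 15, 1 of the 14 still tested was lower and the median was -0.17. Of 23 leukocyte integrin and actin regulator genes, 22 had a negative log2 fold change and 11 were lower at an unadjusted p under 0.05. For 22 of these 23, EIC mouse 67 had the highest level, and without it 1 of 22 was lower at an unadjusted p under 0.05 and the median went from -0.53 to -0.235. Among cytokine, chemokine and NF-kappaB genes, 1 of 21 was lower and none was higher at an unadjusted p under 0.05. Of all genes tested, 3.72% were lower and 3.63% were higher with mouse 67, and 2.7% and 2.31% without it.

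The study chose 3 groups of genes on these same samples, which makes their counts no independent evidence. Of 36 genes it plotted, 23 were lower and 1 was higher at an unadjusted p under 0.05 in the pooled comparison, with a median log2 fold change of -0.74. Of 23 genes it listed for either dose, 20 were lower at an unadjusted p under 0.05, with a median of -1.14. All 7 genes it measured by quantitative PCR were lower at an unadjusted p under 0.05, with a median of -0.93. Of all genes tested, 3.72% were lower and 3.63% were higher. edgeR called no gene of any of these groups, DESeq2 called 5 in each, and EIC mouse 67 had the highest level for 27 of the 36, 19 of the 23 and 7 of the 7. Without that mouse the medians were -0.36, -0.65 and -0.66. Some of these genes are also members of the interferon, macrophage, complement, Fc receptor and leukocyte integrin lists above. The counts of those lists are thus not independent of the study's choice.

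Of 17 proliferation genes tested, 13 had a negative log2 fold change and 6 were lower at an unadjusted p under 0.05, with a median of -0.24. Without EIC mouse 67, 3 were lower and the median was -0.10. Of all genes, 3.72% were lower with that mouse and 2.7% without it. Ccnd1, cyclin D1, was 228, 269, 255, 187 and 243 CPM in EIC, 216, 176, 215, 185 and 200 CPM at 60 mg per kg and 168, 171, 130, 157 and 136 CPM at 120 mg per kg. The 60 mg per kg group overlapped with EIC and the 120 mg per kg group did not. The Control mice, at 519, 433, 258, 346 and 299 CPM, lay above every sparsentan mouse, so the lower values with sparsentan were further from Control than those of EIC. The log2 fold change of Ccnd1 against EIC was -0.43 pooled (SE 0.12, adjusted p = 0.373), -0.25 at 60 mg per kg (SE 0.10, adjusted p = 0.721) and -0.64 at 120 mg per kg (SE 0.10, adjusted p = 0.0227). The replication factors Mcm2, Mcm3 and Mcm5 had pooled values of -0.24 (SE 0.08), -0.53 (SE 0.17) and -0.51 (SE 0.18), with adjusted p-values of 0.59, 0.541 and 0.59, and without mouse 67 the values were -0.22, -0.32 and -0.31.

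Among 33 extracellular matrix genes, 24 had a positive log2 fold change and the median was 0.09. Only Tgfb2, at 0.35 (SE 0.14, adjusted p = 0.645), was higher at an unadjusted p under 0.05, against 3.63% of all genes. Without EIC mouse 67, 4 were higher, against 2.31% of all genes, and the median was 0.15. Col1a1 had a value of 0.60 (SE 0.30, adjusted p = 0.703). Of 16 cholesterol synthesis genes, 14 had a positive log2 fold change and the median was 0.14. The medians of podocyte, heat shock, drug-metabolizing P450 and PPAR-alpha genes lay between -0.01 and 0.04. Havcr1, the injury marker KIM-1, had a log2 fold change of 3.23 (SE 0.95, adjusted p = 0.657) that rested on few mice, with 3 of 10 sparsentan mice above every EIC mouse, and that ranged from 1.20 to 3.41 over the alternatives.

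**Figure D4:**
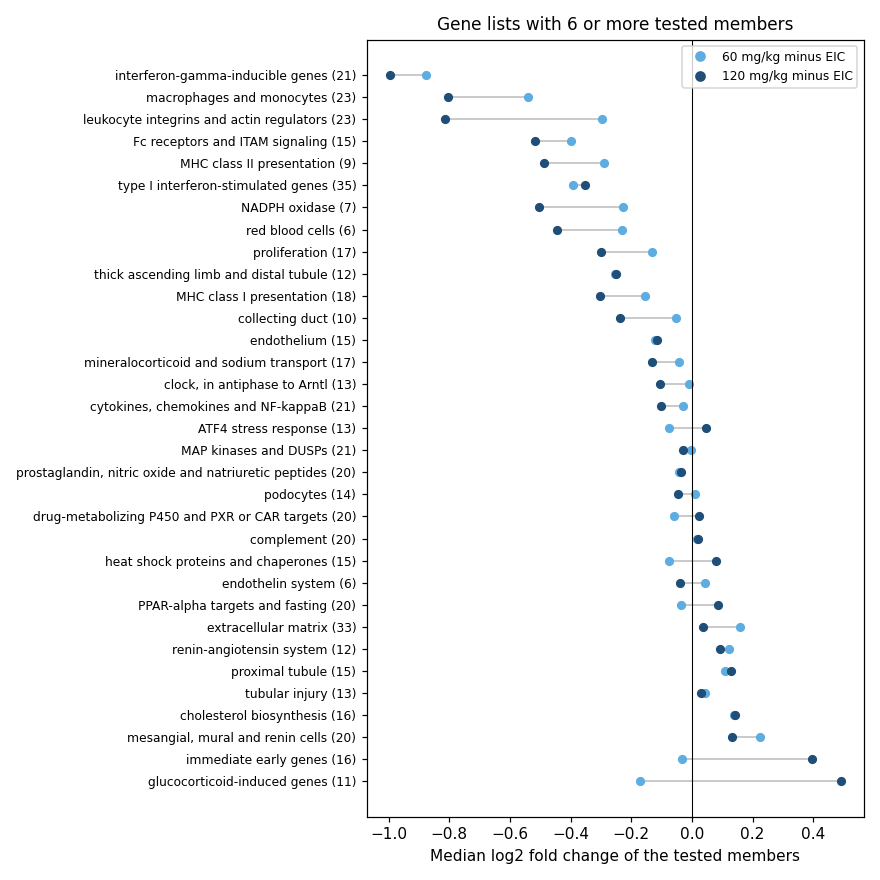
Median log2 fold change of the tested members of each gene list with at least 6 of them (numbers in parentheses). Light points are 60 mg per kg and dark points 120 mg per kg, both against the same 5 EIC mice. The groups of genes that the study chose are left out. Interferon-gamma-inducible genes are lowest at both doses (-0.878 and -0.997), whereas glucocorticoid-induced genes stand at -0.17 and 0.49 and immediate early genes at -0.03 and 0.40.

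The doses differed in a few genes that the pooled comparison averages away. Directly between doses, 5 genes (0.0364% of those tested) had an adjusted p under 0.05, and none of these was called in the pooled comparison. Each dose against EIC gave 1 call at 60 mg per kg (0.00728%, Ren1) and 6 at 120 mg per kg (0.0437%). They were Ren1, Map3k5, Ccnd1, Dbp, Gjb2 and Eddm3b, the last named after its values had been seen. Ren1 and Map3k5 stayed called at 120 mg per kg with any library left out. The other 4 lost the call in 6 to 9 of the 15 fits that left out a library, with adjusted p-values up to 0.183, and without EIC + S120 mouse 77, the number of calls at 120 mg per kg was 27.

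Map3k5, the stress kinase ASK1, was 52.1, 53, 46.3, 51.4 and 51.3 CPM in EIC and 51, 51.2, 45.4, 55.2 and 52.6 CPM at 60 mg per kg. It was 64.5, 75, 70.9, 87.4 and 76.7 CPM at 120 mg per kg, above every mouse of the other 2 groups. The difference between doses was 0.55 on the log2 scale (SE 0.07, adjusted p = 0.00504), and the pooled log2 fold change was 0.31 (SE 0.13, adjusted p = 0.657). Gjb2, connexin 26, was 155, 148, 162, 128 and 167 CPM in EIC, 169, 179, 159, 167 and 172 CPM at 60 mg per kg and 109, 100, 128, 111 and 94.7 CPM at 120 mg per kg. The difference between doses was -0.64 (SE 0.08, adjusted p = 0.00504).

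Genes of the circadian clock were also called between doses. Dbp, a clock output factor, was 239, 247, 261, 290 and 230 CPM in EIC and 267, 297, 252, 233 and 245 CPM at 60 mg per kg, against 193, 132, 184, 132 and 148 CPM at 120 mg per kg. Cry1, a clock repressor, was 13.6, 10.5, 8.94, 11.1 and 12.4 CPM in EIC, 6.53, 7.85, 10.8, 12.1 and 7.63 CPM at 60 mg per kg and 17.4, 21.4, 17.3, 18.8 and 23.5 CPM at 120 mg per kg. In both the 120 mg per kg mice did not overlap with either other group. The differences between doses were -0.71 for Dbp (SE 0.11, adjusted p = 0.0111) and 1.13 for Cry1 (SE 0.16, adjusted p = 0.00644). Without EIC + S120 mouse 81, Dbp lost the call (adjusted p = 0.0675), and without mouse 77, 48 genes were called between the doses. For Cry1 the Control mice, between 1.6 and 3.6 CPM, were lower than all mice given complexes. For Dbp the Control mice, between 131 and 183 CPM, were in the range of the 120 mg per kg mice or close to it. They were below all EIC and all 60 mg per kg mice. Neither the labels nor the methods give the hour at which each kidney was taken, and the part of this hour in the clock gene values was not tested.

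Immediate early genes had a median log2 fold change of -0.03 at 60 mg per kg and 0.40 at 120 mg per kg, and glucocorticoid-induced genes one of -0.17 and 0.49. Egr1, an immediate early transcription factor, was 9.87, 7.79, 3.35, 4.63 and 7.92 CPM in EIC, 8.47, 3.73, 9.6, 7.5 and 27.9 CPM at 60 mg per kg and 41.8, 96.6, 38.8, 32.7 and 59.1 CPM at 120 mg per kg. All 5 mice at 120 mg per kg were above all mice of the other 2 groups, the difference between doses was 2.19 on the log2 scale with a 95% interval from 1.39 to 3.46, and its adjusted p was 0.162. The Control mice, at 64.1, 39.4, 22.5, 51.8 and 116 CPM, were in the range of the 120 mg per kg mice or close to it. Fkbp5, induced by glucocorticoids, had a log2 fold change of -0.67 at 60 mg per kg (SE 0.26) and 0.79 at 120 mg per kg (SE 0.26), and the difference between doses had an adjusted p of 0.084. Zbtb16, likewise glucocorticoid-induced, had values of -1.66 (SE 0.49) and 0.86 (SE 0.49), with a pooled value of 0.08 (SE 0.70, adjusted p = 0.989).

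**Figure D5:**
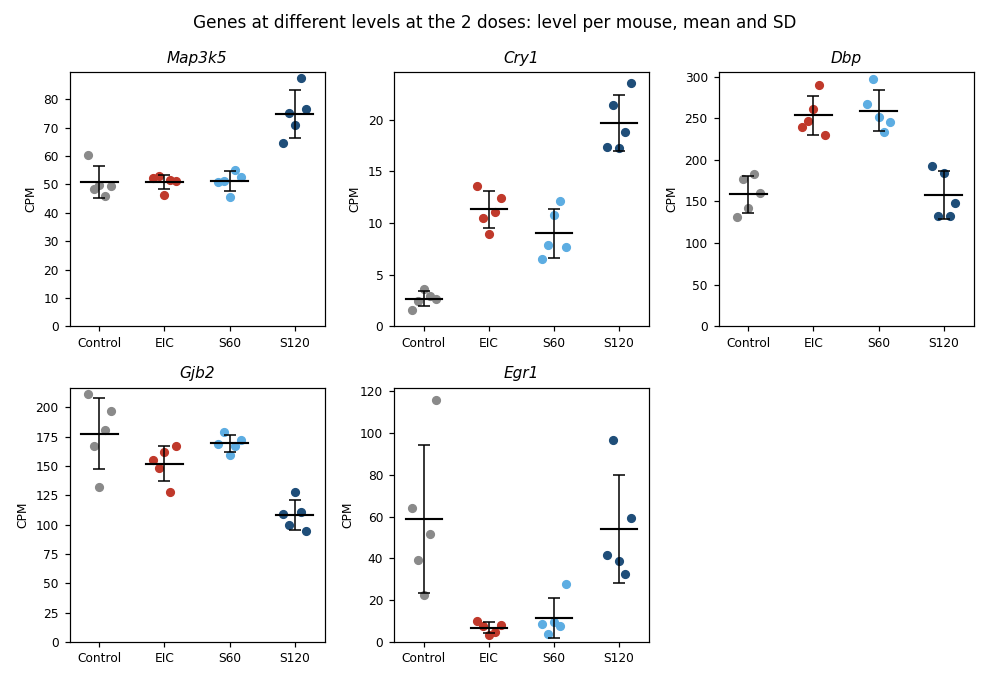
Levels in CPM (vertical axes, linear from 0) of 5 genes in each mouse of the Control, EIC, EIC + S60 and EIC + S120 groups (points), with the group mean and SD (bars, n = 5). For Map3k5, Cry1 and Egr1 the 5 EIC + S120 mice lie above all EIC and EIC + S60 mice, and for Dbp and Gjb2 they lie below them.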

How the data were processed

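Counts per gene were deposited by the authors, whose processing notes name Trimmomatic (0.36) for trimming, STAR (2.5.2b) with the GRCm38 build for alignment and featureCounts (Subread 1.5.2) for counting. Neither the annotation nor the strand setting is given there. The 15780 genes listed all have at least 1 count in EIC mouse 65, whereas the other libraries have from 234 to 654 genes at 0, so genes absent from that mouse cannot be assessed. The 13 mitochondrial protein genes are listed without their prefix, and 21 gene names had been turned into dates.

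Names were matched to GENCODE vM21. Genes that reached 10 counts in 5 or more of the 15 libraries were scaled by TMM and tested with edgeR (4.0.16) by a robust quasi-likelihood F test, two-sided, with Benjamini-Hochberg adjustment at 0.05, first with both doses as 1 group and then with 1 coefficient per group. SEs and intervals come from limma (3.58.1), run on log2 CPM values (prior count 2). The fold changes and p-values beside them are those of edgeR, so an interval need not be centered on the fold change it stands beside. Control libraries were scaled to the same reference library. Alternatives used DESeq2 (1.42.0), limma-voom, other scalings and filters, all 20 libraries, and each library left out in turn. Scripts were tested on simulated counts. No pair of libraries agreed within sampling noise (the lowest ratio of observed to sampling variance was 6.06).

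The pooling, gene lists and named genes were chosen with earlier results of these data known. Named were the called genes, the 10 with the smallest p, all renin-angiotensin and endothelin genes, up to 4 members with the smallest p of each other list (all members of short lists), genes the study names, and genes called between doses. Results of some named genes are not reported here. Genes outside this rule are said to be so where named, except Gja5, Gja4, Acta2, Myh11, Igtp, Gbp3, Cxcl10 and markers that had too few counts, which were added as members of their lists. The mice of the groups share no numbers, animals or stated batch. The study housed the mice at the same animal facility, treated them in parallel and sent the kidneys to a sequencing company. It gives neither the cage nor the sequencing batch of each mouse.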

Additional observations from a re-analysis of the deposited data

Results flagged for a closer look

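Mouse values were checked within EIC (n = 5) and within sparsentan (n = 10) for 26 genes described mouse by mouse, 52 groups of values in all. In 5 of them, 1 mouse lay far from the others, where chance gives about 1 in 20. EIC + S120 mouse 79 was far above the other sparsentan mice for Gbp9 (3.61 CPM) and Tgtp2 (5.89 CPM). EIC + S60 mouse 72 was far below them for Scnn1a (78.4 CPM) and far above them for Lyz2 (23.2 CPM). EIC mouse 67 was far below the other EIC mice for Map3k5 (46.3 CPM).

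Levels differed between the mice of the 2 doses, by the direct test of EIC + S120 against EIC + S60, in the genes that follow. The log2 differences were -0.641 for Gjb2, 0.552 for Map3k5, 1.13 for Cry1 and -0.714 for Dbp. Each mouse of the higher dose lay outside the range of the lower dose for each of them. The hour of harvest, the cage and the sequencing batch of each mouse are not given, and their part in these differences was not tested.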

How the results depend on the processing

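In the pooled comparison edgeR called Ren1 alone with RLE scaling, library size alone, no filter, a filter at a mean of 1 CPM and 1 coefficient per group, as did limma-voom. DESeq2 called 36 genes, and with all 20 libraries edgeR called 0 (1000 genes at an unadjusted p under 0.05). Leaving out 1 library gave 1 to 3 calls, with Ren1 among them each time, and 3 (Ren1, Plcb1 and Gbp9) without EIC mouse 66. At 60 mg per kg DESeq2 called 14 genes, the fit of all 20 libraries 0 (823 unadjusted), and leaving out 1 library gave 0 to 2. At 120 mg per kg DESeq2 called 68, and leaving out 1 library gave 2 to 27. Between doses the calls were 13 by library size alone, 96 by DESeq2, 8 without a filter, 9 with a mean of at least 1 CPM, 9 with all 20 libraries, and 3 to 48 with 1 library left out, the 48 without EIC + S120 mouse 77. The cause was not tested. The number of genes whose groups did not overlap was 17. It was 18 to 75 with 1 library left out, where fewer mice have to be cleared. The 75 came without EIC mouse 66, against 41, 27, 34 and 38 without EIC mouse 65, 67, 68 or 69. What set mouse 66 apart in this count was not tested. Of the 235 named genes, 29 took the other sign under at least 1 alternative, none of them called, and 19 were called under at least 1. With 5 EIC mice, low genes such as Nlrc5 rest on few counts. No paired analysis was possible because the mouse numbers differ between groups.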

Other observations

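Tlr12, a toll-like receptor, and Serpina6, the corticosteroid-binding globulin, had the widest log2 fold changes of the 36 genes that DESeq2 called. The Serpina6 value was -2.84 (SE 0.63, adjusted p = 0.337 by edgeR and 0.0211 by DESeq2), from a mean of 8.5 CPM in EIC to 1.2 CPM with sparsentan, and 1 EIC mouse, at 27 CPM, made up much of the EIC mean. The Tlr12 value was 3.91 (SE 1.08, adjusted p = 0.485 by edgeR and 0.00631 by DESeq2), from a mean of 0.501 CPM in EIC to 7.74 CPM with sparsentan. The sparsentan mice ranged from 0.14 to 13.6 CPM, with 7 of 10 above every EIC mouse, and the Control mean was 4.77 ± 9.66 CPM (SD, n = 5), so Tlr12 also varied widely among mice without drug. Both were picked after their values had been seen, as was Mgp. Mgp, matrix Gla protein, which inhibits calcification of vessels, had a value of 0.95 (SE 0.24, adjusted p = 0.373 by edgeR and 0.00954 by DESeq2), with means of 27.1 and 52.2 CPM. Pappa2, a protease of insulin-like growth factor binding proteins that the macula densa makes, was 2.58, 6.37, 5.25, 5.09 and 5.47 CPM in EIC and 4.22 to 10.3 CPM with sparsentan, and was added after its values had been seen.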
